A study of Drosophila melanogaster with 4 samples.

Results

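The genes described here are those for the protein subunits of the mitochondrial ribosome in Drosophila melanogaster, taken as every gene whose FlyBase symbol starts with mRpL (large subunit) or mRpS (small subunit). Of 17023 genes in the count files, 71 carry such a symbol, 47 of the large and 24 of the small subunit. The subunit was taken from the letter of the symbol alone, here and below. Another 2 genes of the annotation with such symbols, mRpS34 and mRpS5, were not matched to an identifier in the files and were not analysed here. The symbol rule used no measured value.

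Mitochondria have their own ribosomes, which translate the few proteins encoded by the mitochondrial genome, all of them parts of the respiratory chain or of the ATP synthase. The RNA of this ribosome is made inside the mitochondrion, but its proteins are encoded in the nucleus, translated in the cytoplasm and imported. In the ovary, mitochondria multiply in the germ line during oogenesis and are passed to the egg. Some of the proteins descend from bacterial ribosomal proteins and others are found only in mitochondria. By the numbering of the mammalian proteins, 45 of the 71 have a bacterial homologue and 26 do not.

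Poly(A) RNA was measured in 4 libraries from Drosophila ovaries of the genotype labelled WT, in 2 groups of 2. The pulldown libraries hold RNA recovered with a mouse antibody against pseudouridine, an isomer of uridine that enzymes make in RNA after transcription. The input libraries hold RNA from the homogenate before any antibody was added. Both groups are numbered 1 and 3 in the labels, and pulldown 1 was set against input 1 and pulldown 3 against input 3. The libraries come from whole ovaries, so germline and somatic cells are mixed, and fewer cells of a type cannot be told apart from less RNA per cell. The labels do not say that the 2 replicates came from separate animals, so p-values measure only the spread between these libraries, which may be technical. RNA recovered with a non-specific antibody was not analysed here, so a higher value in a pulldown is not by itself a measure of pseudouridine.

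Depth differed widely. The inputs had 4245717 (input 1) and 12684875 counts (input 3), and the pulldowns 984979 (pulldown 1) and 6338436 (pulldown 3). The limit that a count of 0 allows, taken as 3 counts, corresponded to 0.707 and 0.237 in these inputs and to 3.05 and 0.473 in these pulldowns, in CPM (counts per 1000000 of the library). The 10 most abundant genes accounted for 33.1% of pulldown 1 and from 6.34 to 13.5% of the other libraries. The ovary label was checked against marker genes. The 5 of 7 germline markers matched in the files (osk, bru1, orb, otu, aub) summed to between 2426 and 4961 CPM and 8 follicle cell markers to between 16078 and 188173 CPM. Markers of gut, fat body and testis were at or near 0, with no list above 2.03 CPM in any library. For the muscle sheath, 4 of 5 markers summed to between 141.6 and 355.3 CPM. The 4 haemocyte markers summed to between 94.4 and 461.5 CPM, mostly vkg, while Hml and NimC1 did not exceed 7.11 and 0.158 CPM.

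The letters at which known enzymes make pseudouridine were looked for in these mRNAs. In yeast and human cells the pseudouridine synthases Pus4 and TRUB1 act on RNA stretches that read GTTCNANNC when written as DNA, and Pus7 acts on stretches that include TNTAA and TNTAG. The first 300 bases of the longest coding sequence of each gene were searched on the sense strand for these letters. The search covered the 67 of 70 tested genes whose coding sequence is that long. Matches to GTTCNANNC were found in 3 genes (4.48%), mRpL15, mRpS29 and mRpS35, and in 445 of 6596 other tested genes (6.75%). The windows of mRpL15 (3L:20436012-20436040, minus strand) and mRpS35 (3L:2781326-2781354, plus strand) are shown as the places in these mRNAs where the letters match. They were read from the dm6 genome, 5′ to 3′, with the matched letters in capitals and 10 bases on either side. The first capital is coding base 61 in mRpL15 and coding base 261 in mRpS35, counted from the A of the start codon.
mRpL15: tttaccgcgcGTTCAAATCggcaatctgc
mRpS35: gaccacgttcGTTCCACCCggccagtgtg
TNTAA was found in 20 of the 67 (29.9%) and in 28.5% of the other genes, and TNTAG in 11 (16.4%) and in 18.6% of the others. The shares of the members were thus close to those of other genes for all 3 motifs. A match is a description of the letters and not a modified site.

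The inputs give the level of the mRNAs before the antibody. The median mitochondrial ribosomal protein gene was at 39.1 CPM in input 1 and 47.4 CPM in input 3. The tested members lay between 2.83 and 153.3 CPM in input 1 and between 4.97 and 159.6 CPM in input 3. All counts on these genes together made up 0.303% of input 1 (95% Wilson interval 0.298 to 0.308) and 0.358% of input 3 (0.354 to 0.361). Intervals on counts cover counting error only, since reads without molecular identifiers are not independent molecules. Compared per kb of exon, the members spread over a wide range of levels, with a coefficient of variation of 76.9% in input 1 and 41.8% in input 3.

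Per kb of exon, mRpL12 had the highest mean level in the inputs. It encodes the L7/L12 protein of the ribosomal stalk, which recruits translation factors and is present in several copies on each ribosome. It stood at 168.8 CPM per kb in input 1 and 151.3 in input 3. mRpS7, a protein of the head of the small subunit, stood at 167.2 and 128.7 CPM per kb, mRpS10, also in the head, at 173.6 and 109.3, and mRpS18A at 159.3 and 104.2. The ranges of these levels over the 2 inputs overlapped, so their order is not settled. mRpL55, the homologue of bacterial L31, followed at 133.3 and 74.2 CPM per kb. At the other end, mRpL48 stood at 8.35 and 22.7 CPM per kb, mRpS21 at 6.45 and 24.4, and mRpS24 at 4.71 and 8.28. The levels of these genes in both inputs lay below those of the 5 highest genes, while their own ranges overlapped for mRpL48 and mRpS21, and for mRpS24 with mRpS21. mRpS24 is the counterpart of bacterial S3, a protein at the entry of the mRNA channel. The counts of mRpL48, mRpS21 and mRpS24 are uncertain over the 27.7%, 48% and 55.3% of their exon bases that they share with genes on the other strand (mostly frtz for mRpL48, CG8870 for mRpS21 and TBC1d7 for mRpS24), since the strand setting of the counting is not given in the sources used here.

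mRpL53 (2R, 13954195 to 13955664) was listed at 0 in all 4 libraries and was the only member not tested. All 829 of its exon bases are shared with CG33155 on the same strand, which was also listed at 0 in all 4 libraries. Its level could therefore not be measured from these counts. In all, 42 members share exon bases with another gene, 41 of them on the opposite strand, and 10 share over 10% of their exon bases. The other 29 share none. Their median log2 fold change in the test between groups was 0.36, against 0.27 over the 70 tested members.

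The 2 inputs did not give every member the same level. CPM in the inputs differed by at least 2-fold for 18 of 70 tested members (25.7%), against 41.4% of all tested genes. Of these 18, 17 were higher in input 3 and 1 in input 1. The split by direction over all tested genes is not given here, so this need not be particular to the members. mRpS9 was at 9.66 CPM in input 1 and 77.4 CPM in input 3, and mRpS31, a protein found only in mitochondria, at 9.66 and 60.9. mRpL35 went the other way, at 111.2 and 37.6 CPM. mRpS9 shares 25.1% of its exon bases with ArgRS-m on the other strand and mRpL35 11.1% with CG6028, so both levels are uncertain. The pulldowns differed more, by at least 2-fold for 47 members (67.1%) and for 63.1% of all tested genes. Over the tested members, log2 CPM correlated at r = 0.652 between the inputs, at 0.286 between the pulldowns, at 0.632 between input 1 and pulldown 1 and at 0.752 between input 3 and pulldown 3. These are descriptions over 70 genes that share their libraries. Of these 4 pairs, the 2 pulldowns were the least alike. The same held over all tested genes, where r was 0.839 between the inputs and 0.631 between the pulldowns. Between input and pulldown it was 0.765 in replicate 1 and 0.874 in replicate 3.

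**Figure D1:**
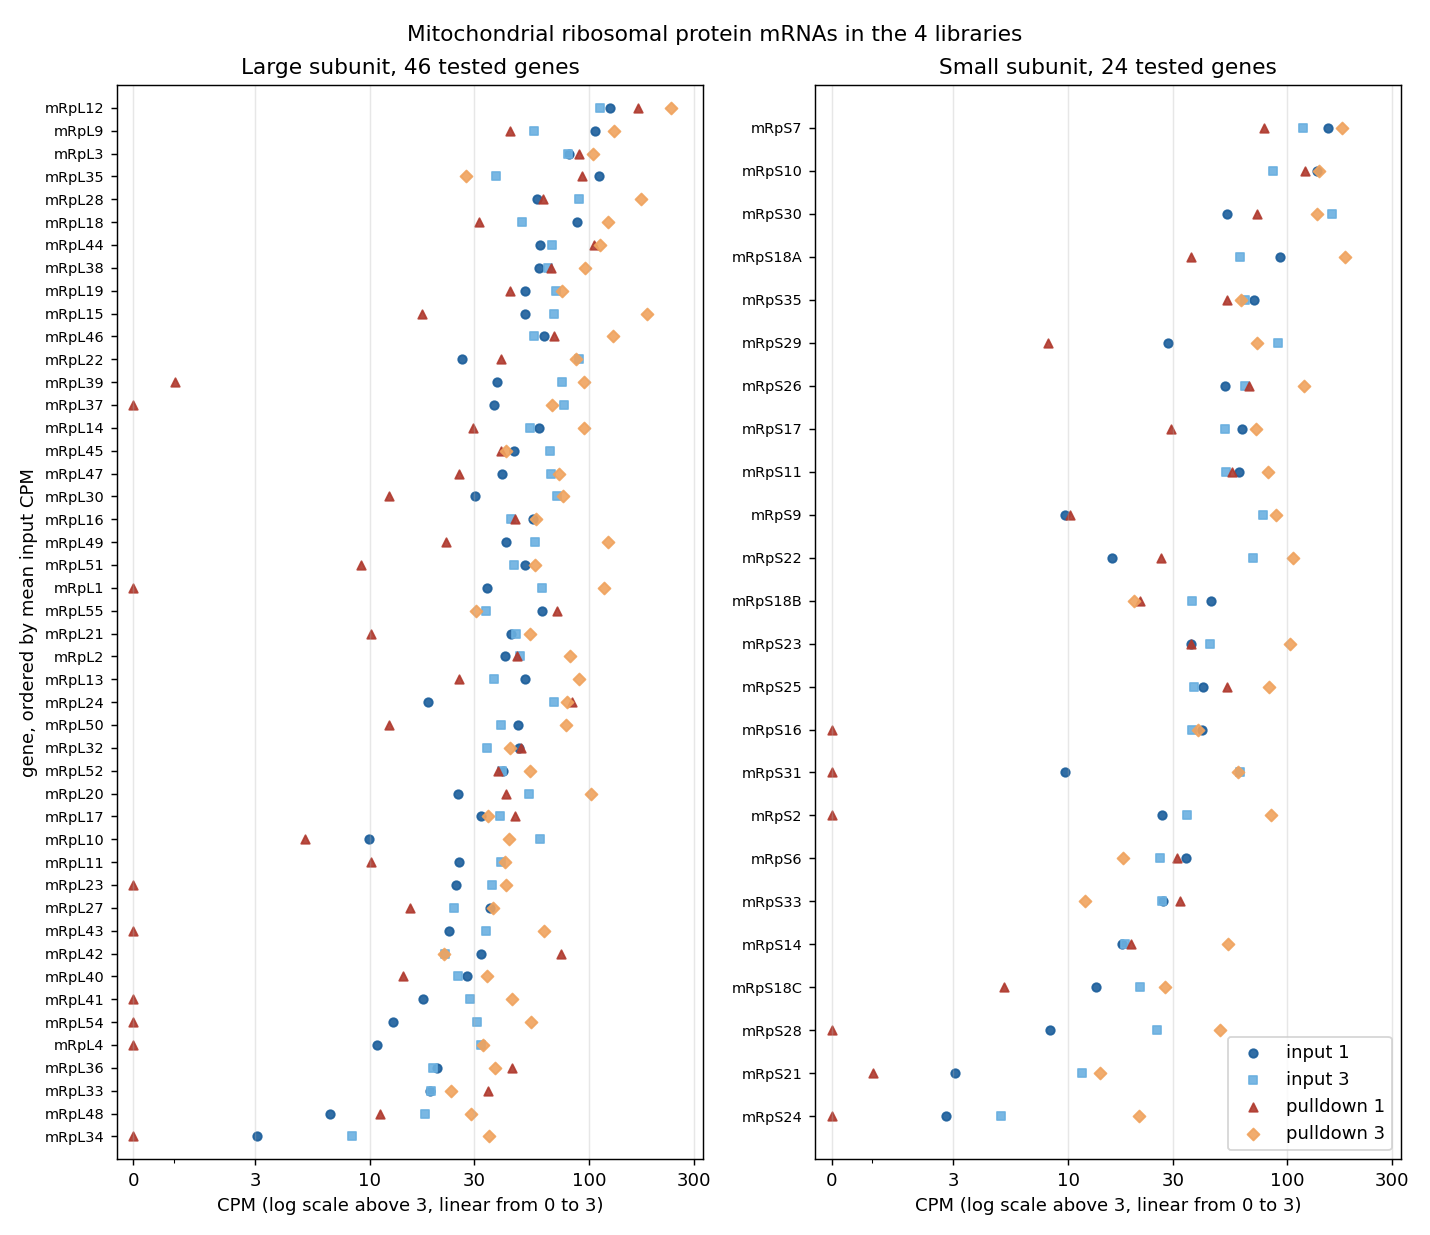
CPM of each tested gene (horizontal axis, logarithmic above 3 and linear from 0 to 3) in input 1, input 3, pulldown 1 and pulldown 3, with large subunit genes on the left, small subunit genes on the right, and genes ordered by mean input CPM. Pulldown 1 (red triangles) lies at 0 for 13 genes, and pulldown 3 (orange diamonds) lies to the right of input 3 for most.

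Whether the antibody takes up these mRNAs more or less than others was asked first of their total. The members held 0.240% of the counts of pulldown 1 (0.231 to 0.250) and 0.528% of those of pulldown 3 (0.523 to 0.534). Pulldown over input was thus 0.794 in replicate 1 and 1.48 in replicate 3, in opposite directions and each outside counting error. Inputs had a mean share of 0.330% ± 0.0388 and pulldowns one of 0.384% ± 0.204 (SD, n = 2 each), and the groups overlapped (two-sided exact permutation test, p = 1, where 2 against 2 libraries cannot go below 0.333). Large subunit genes gave ratios of 0.828 and 1.51 and small subunit genes 0.728 and 1.42, so both subunits followed the same order of replicates. Follicle cell markers, among them genes of yolk proteins and of the vitelline membrane, summed to 60982 CPM in input 1 and 188173 CPM in pulldown 1, and to 16078 and 24500 CPM in input 3 and pulldown 3. Most of the sum lay in Vm26Aa and Vm26Ab in pulldown 1, and single markers went either way, as Cp36 and Fas3 were lower in pulldown 1 than in input 1, and Yp2, Yp3, Fas3 and tj were lower in pulldown 3 than in input 3. The 5 germline markers were each lower in the pulldown in both replicates, with sums of 4584 and 2426 CPM in replicate 1 and 4961 and 3096 CPM in replicate 3. Most genes were lower on this scale, as 30.2% of all tested genes in replicate 1 and 43.2% in replicate 3 were higher in the pulldown. A lower value is thus not particular to the germline markers. Without the 10 genes with the most reads in each library, the ratio of the members was 1.03 in replicate 1 and 1.48 in replicate 3. The part of the follicle and germline markers in these shares was otherwise not tested.

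No member passed the test between groups. Of 70 tested members, 0 were called higher and 0 lower by edgeR's quasi-likelihood test at an adjusted p under 0.05 and a change of 2-fold or more, as were 0 (0%) and 0 (0%) of 7085 tested genes. The smallest p of a member was 0.153 unadjusted, for mRpL12, and 0.9999 adjusted (edgeR). At an unadjusted p under 0.05 there were 0 members and 2.06% of all tested genes, and DESeq2 called 0 members, with 0 at an unadjusted p under 0.05. The fit with the replicate number as a block also called 0. For DESeq2 and this block fit, the share of all tested genes called is not given here. The log2 fold changes of members ran from -1.09 (mRpS16) to 1.60 (mRpL34). Their standard errors (SE) were between 0.61 and 1.98, with a median of 0.94. The SE was taken as the absolute change divided by the square root of the F statistic of the edgeR test. For 58 of the 70 the change was smaller than its SE, which restates that test.

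The members nevertheless lay above the middle of all genes in this fit. Their median log2 fold change was 0.27 and that of all other tested genes -0.07, a difference of 0.34, and 50 of 70 (71.4%) were above 0, against 46.2% of all tested genes. Large and small subunit genes both had a median of 0.27, with 33 of 46 and 17 of 24 above 0. The 45 genes with a bacterial homologue had a median of 0.31 and 34 above 0, and the 25 tested genes found only in mitochondria 0.23 and 16 above 0. The difference of 0.34 rested on replicate 3. Within replicate 3 it was 0.58, and within replicate 1 it was -0.07. With no filter on low counts, where 10544 genes are compared, it was 0.75.

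Log2 ratios within each pair of libraries show the same. They were computed from log2 CPM on TMM-scaled library sizes, a scaling that takes most genes to be unchanged, with a prior count of 2. The median member was at -0.38 in replicate 1, where the other tested genes were at -0.31, and at 0.51 in replicate 3, where the others were at -0.07. Against total counts, the TMM scale shifted the median of the other genes by 0.40 in replicate 1 and 0.06 in replicate 3. In replicate 1, 33 members (47.1%) were above 0, against 40.8% of all tested genes, and in replicate 3, 58 (82.9%) against 46.4%. On total counts these were 25 members (35.7%) in replicate 1 and 55 (78.6%) in replicate 3, against 30.2% and 43.2% of all tested genes.

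The spread among members differed as much as the medians. Their log2 ratios had an SD of 2.53 in replicate 1 and 0.64 in replicate 3, against 2.27 and 1.10 over all tested genes. By a 2-fold threshold, 8 members (11.4%) were higher in replicate 1 and 21 (30%) lower, where 16.3% and 35.3% of all tested genes were. The 21 include the 13 members with 0 reads in pulldown 1, whose ratio is set by the prior count, and for 3 of the 21 (mRpL34, mRpS21 and mRpS24) and 1 of the 8 (mRpL48) the counting interval of the CPM ratio held 1. In replicate 3, 16 (22.9%) were higher and 1 (1.43%) lower by that threshold, where 8% and 13.7% of all tested genes were. That 1 gene was mRpS33. Past it in both replicates were 0 members in either direction, higher or lower, against 1.62% and 6.41% of all tested genes. At 1.5-fold in both these were 8 members higher (11.4%) and 1 lower (1.43%), against 5.45% and 13.2% of all tested genes. Counting error was small beside these spreads, with a median SD of the log2 ratio of 0.27 over the 57 members with reads in pulldown 1 and of 0.091 in replicate 3, where the plain log2 CPM ratios of the same members had SDs of 1.15 and 0.65.

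The 2 replicates did not rank the members alike. Over the 70 tested members their log2 ratios correlated at r = -0.114 and rho = -0.095, and over the 57 with reads in pulldown 1 at rho = -0.028, as a description over genes of the same libraries. Members lower in replicate 1 and higher in replicate 3 numbered 32 (45.7%, against 25.1% of all tested genes), and 7 were the other way round. Higher in both were 26 (37.1%, against 20.6%), and lower in both were 5 (7.14%, against 33.1%). On total counts 19 were higher and 9 lower in both, for which no share of all tested genes is given here. Between the scales 8 members changed sign in replicate 1 (mRpL16, mRpL19, mRpL35, mRpL45, mRpL52, mRpS6, mRpS10 and mRpS11). In replicate 3 the sign changed for 3 (mRpL22, mRpL42 and mRpS31).

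**Figure D2:**
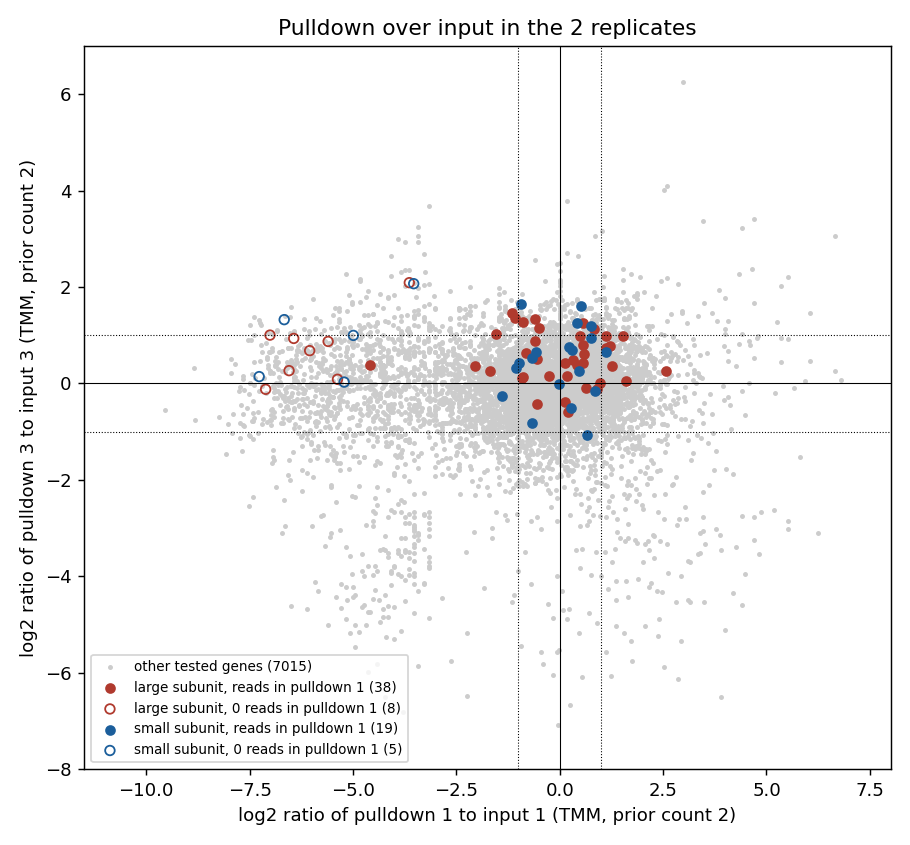
Log2 ratio of pulldown to input on the TMM scale in replicate 1 (horizontal axis) and replicate 3 (vertical axis), with red for large subunit genes, blue for small subunit genes, open circles for genes with 0 reads in pulldown 1 and grey for all other tested genes; dotted lines mark 2-fold. Filled points lie on both sides of 0 in replicate 1 and mostly above 0 in replicate 3, and the open circles lie at -3.53 or lower in replicate 1.

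Among the 26 members higher in both replicates, mRpL12 (3L, 8956791 to 8957584, plus strand) had the most reads in both pulldowns. It was at 124.6 CPM in input 1 and 167.5 CPM in pulldown 1, and at 111.6 CPM in input 3 and 236.0 CPM in pulldown 3. Both pulldowns were above both inputs. The inputs averaged 118.1 ± 9.17 CPM and the pulldowns 201.8 ± 48.4 CPM (SD, n = 2 libraries each), and the log2 fold change was 0.96 (SE 0.61, edgeR adjusted p = 0.9999).

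mRpL36 (3L, 8124584 to 8125132, minus strand), the counterpart of the smallest protein of the bacterial large subunit, was at 20.3 and 44.7 CPM in input 1 and pulldown 1 and at 19.4 and 37.1 CPM in input 3 and pulldown 3. Again the pulldowns stood above the inputs, which were close to each other. The ratio of CPM was 2.21 in replicate 1 (95% exact interval 1.5 to 3.21) and 1.91 in replicate 3 (1.59 to 2.30), and the log2 fold change 1.33 (SE 1.00). mRpL44 (3R, 5469463 to 5470636, minus strand), whose human counterpart has a fold related to ribonuclease III, was at 59.6 and 105.6 CPM in input 1 and pulldown 1 and at 67.6 and 111.9 CPM in input 3 and pulldown 3. It too had no overlap between the groups, and its ratios of 1.77 (1.4 to 2.23) and 1.65 (1.5 to 1.83) were within counting error of each other. Its log2 fold change was 1.03 (SE 0.66). Over 104 of its exon bases (9.27%) its counts are uncertain because of POLDIP2 on the other strand.

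mRpS26 (3L, 18106579 to 18107499, plus strand), a small subunit protein found only in mitochondria, was at 52.1 and 67.0 CPM in input 1 and pulldown 1 and at 63.9 and 119.0 CPM in input 3 and pulldown 3. The lower pulldown was just above the higher input. mRpL20 (3L, 13017149 to 13017867, minus strand), whose bacterial counterpart acts early in the assembly of the large subunit, was at 25.2 and 41.6 CPM in input 1 and pulldown 1 and at 53.0 and 101.8 CPM in input 3 and pulldown 3. Its groups overlapped, because input 3 was above pulldown 1, while the ratio was above 1 in each replicate, at 1.65 (1.12 to 2.39) and 1.92 (1.72 to 2.14). The log2 fold changes were 0.86 (SE 0.66) for mRpS26 and 1.05 (SE 0.78) for mRpL20, and neither passed the test (edgeR adjusted p = 0.9999 for each).

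Both pulldowns lay above both inputs for 11 members (15.7%), against 6.21% of all tested genes, and below both inputs for 3 members (4.29%), against 20%. The 11 were mRpL3, mRpL12, mRpL24, mRpL33, mRpL36, mRpL38, mRpL44, mRpL46, mRpS14, mRpS25 and mRpS26, and the 3 were mRpL45, mRpS18B and mRpS35. On counting error alone, the interval of the CPM ratio lay above 1 in both replicates for 6 members (8.57%, against 6.86% of all tested genes), namely mRpL12, mRpL20, mRpL24, mRpL36, mRpL44 and mRpS22. It lay below 1 in both for 3 (4.29%, against 25.6%), and below 1 in replicate 1 and above 1 in replicate 3 for 22 (31.4%, against 15%). The share above 1 in both was close to that of all genes, and the share below 1 in both was lower.

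mRpL24 (2L, 4944256 to 4945361, minus strand), whose bacterial counterpart starts the assembly of the large subunit, had the highest log2 ratio of replicate 1 among the members, at 2.57. It was at 18.4 CPM in input 1 and 83.3 CPM in pulldown 1, and at 68.8 CPM in input 3 and 79.7 CPM in pulldown 3. Input 1 stood alone below the other libraries. In that replicate the ratio was 4.53 (3.28 to 6.26), and in replicate 3 it was 1.16 (1.04 to 1.29).

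The 5 members lower in both replicates were mRpL10, mRpL37, mRpS18B, mRpS29 and mRpS35. mRpS18B (2L, 20096329 to 20097253, minus strand) was at 45.0 and 21.3 CPM in input 1 and pulldown 1 and at 36.9 and 20.04 CPM in input 3 and pulldown 3. Both pulldowns were about equal and below both inputs. The ratios were 0.474 (0.287 to 0.745) and 0.543 (0.443 to 0.662), and the log2 fold change was -0.75 (SE 1.00, edgeR adjusted p = 0.9999).

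Its paralogues gave other values. Bacteria have a single S18 protein and animal mitochondria have several, and in mammals the product of MRPS18A sits in the large subunit despite its name. mRpS18A (3R, 8561917 to 8562593, minus strand) was at 92.6 CPM in input 1 and 36.5 CPM in pulldown 1, and at 60.5 CPM in input 3 and 182.5 CPM in pulldown 3. It was thus lowest in one pulldown and highest in the other, with ratios of 0.395 (0.273 to 0.556) and 3.01 (2.75 to 3.31). mRpS18C (3R, 30423974 to 30424556, plus strand) was at 13.4 and 5.08 CPM in input 1 and pulldown 1 and at 21.3 and 27.8 CPM in input 3 and pulldown 3, again in opposite directions. The 3 log2 fold changes were 0.48 (SE 0.78) for mRpS18A, -0.75 for mRpS18B and -0.02 (SE 1.31) for mRpS18C. Only mRpS18B had the same direction in both replicates, and the differences between the paralogues were not tested.

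mRpS29 (2R, 22418937 to 22420376, minus strand) encodes the counterpart of DAP3, a GTP-binding protein of the small subunit that is also known from studies of cell death in human cells. It was at 28.5 and 8.12 CPM in input 1 and pulldown 1 and at 91.0 and 72.9 CPM in input 3 and pulldown 3. The replicates differed more than the groups, which overlapped, and the ratios were 0.285 (0.120 to 0.580) and 0.801 (0.718 to 0.893). mRpS35 (3L, 2780899 to 2782105, plus strand), 1 of the 3 members with a match to GTTCNANNC, was at 70.7 and 52.8 CPM in input 1 and pulldown 1 and at 64.2 and 61.5 CPM in input 3 and pulldown 3. Its pulldowns were below its inputs by little, and the log2 ratios on the TMM scale were -0.02 and -0.0064. mRpL15 (3L, 20435110 to 20436209, minus strand), another of the 3, was at 50.9 and 17.3 CPM in input 1 and pulldown 1 and at 69.3 and 183.8 CPM in input 3 and pulldown 3. Here the pulldowns were the lowest and the highest library, with log2 ratios of -1.15 and 1.46. The 3 genes with this motif were all lower in replicate 1 and went different ways in replicate 3. In replicate 1 only 40.8% of all tested genes and 47.1% of members were above 0 on the TMM scale. The direction of the 3 is thus that of most genes.

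mRpL10 (2L, 203779 to 204782, plus strand), which in bacteria anchors the stalk formed by L7/L12, was at 9.89 and 5.08 CPM in input 1 and pulldown 1 and at 60.0 and 42.9 CPM in input 3 and pulldown 3. Both replicate 1 libraries were far below both replicate 3 libraries. Only 5 reads stood behind its value in pulldown 1, and the ratio of 0.513 had an interval from 0.158 to 1.3. The stalk genes mRpL10 and mRpL12 thus differed in the direction of their values in both replicates, without a test of that difference.

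In pulldown 1, the shallowest library, 13 tested members (18.6%) were listed at 0, as were 17% of all tested genes. They were mRpL1, mRpL4, mRpL23, mRpL34, mRpL37, mRpL41, mRpL43, mRpL54, mRpS2, mRpS16, mRpS24, mRpS28 and mRpS31. All 13 had reads in the other 3 libraries, from 12 counts (mRpS24 in input 1) to 973 counts (mRpL37 in input 3). A read was worth more than 1 CPM in pulldown 1, so the 0 is a bound, set here at 3 counts of the library.

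mRpL1 (3R, 8301440 to 8302770, plus strand), which in bacteria forms a mobile stalk at the exit site of tRNA, had 145 counts in input 1 against 0 in pulldown 1, and 771 against 745 in replicate 3, or 34.2, 0, 60.8 and 117.5 CPM. By the bound it was 11.2-fold lower in pulldown 1 than in input 1, and it was 1.93-fold higher in pulldown 3 than in input 3 (1.75 to 2.14). The pulldowns were the lowest and the highest library. mRpS2 (2L, 4849439 to 4850419, minus strand), a small subunit protein between head and body, had 114, 0, 442 and 535 counts in the same order, or 26.9, 0, 34.8 and 84.4 CPM. Its bound was 8.82-fold lower in replicate 1 against a ratio of 2.42 (2.13 to 2.75) in replicate 3, the same pattern as in mRpL1.

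mRpS16 (2R, 14172986 to 14173596, minus strand), which in bacteria acts in the assembly of the small subunit, had 174 counts in input 1 against 0 in pulldown 1, and 467 against 248 in replicate 3, or 41.0, 0, 36.8 and 39.1 CPM. The other 3 libraries agreed within 1.11-fold in CPM, and by the bound pulldown 1 was 13.5-fold below input 1. mRpL37 (3R, 10782563 to 10784092, minus strand), a large subunit protein found only in mitochondria, had 156, 0, 973 and 430 counts, or 36.7, 0, 76.7 and 67.8 CPM. Its bound was 12.1-fold lower in replicate 1, and its ratio in replicate 3 was 0.884 (0.788 to 0.992). mRpL39 came close to this group, with 1 read in pulldown 1 against 162 in input 1, a ratio of 0.0266 (0.00067 to 0.150).

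The remaining members at 0 gave bounds between 2.71-fold (mRpS28) and 8.12-fold (mRpL23) below input 1. Between these were 3.17-fold for mRpS31, 3.56-fold for mRpL4, 4.18-fold for mRpL54, 5.72-fold for mRpL41 and 7.5-fold for mRpL43. mRpL4 and mRpL23 encode counterparts of bacterial proteins that line the tunnel through which the new protein leaves. In replicate 3 these 7 genes had ratios between 0.981 (mRpS31) and 1.93 (mRpS28), and none of them was lower there by more than counting error. Among genes with at least 10 CPM in the mean of the inputs, 16.4% of members and 12.5% of other genes of like input CPM were at 0 in pulldown 1.

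mRpL34 and mRpS24 had the highest log2 ratios of replicate 3 among the members, at 2.09 and 2.07, and few reads in replicate 1. mRpL34 (2R, 16098948 to 16099337, plus strand) had 13 counts in input 1 against 0 in pulldown 1, and 105 against 222 in replicate 3, a ratio of 4.23 (3.34 to 5.39) in replicate 3. mRpS24 (3R, 24162829 to 24163545, minus strand) had 12 against 0 and 63 against 134 counts, a ratio of 4.26 (3.13 to 5.84). In replicate 1 the input of mRpS24 was itself below the limit of pulldown 1 and that of mRpL34 was at it, so replicate 1 gives no fold for either. Their log2 fold changes of 1.60 (SE 1.94) and 1.39 (SE 1.98) had the widest errors among the tested members.

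The rule for this gene group sets it beside other genes of like input level. Members and other genes with at least 10 CPM in the mean of the inputs were put in bins of 0.5 log2 units of that mean, and each of 67 members was compared with the median log2 ratio of the other genes in its bin, 4952 in all. The median difference was 0.24 in replicate 1, where 34 of 67 members were above their bin, and 0.51 in replicate 3, where 55 were. In replicate 1 the members lay between -0.87 and 0.84 at their quartiles, and in replicate 3 between 0.11 and 0.97. Large subunit genes differed by -0.03 and 0.46 and small subunit genes by 0.35 and 0.59 in replicates 1 and 3. Genes with a bacterial homologue differed by -0.15 and 0.49 and those found only in mitochondria by 0.43 and 0.62. The 29 members that share no exon bases with another gene differed by 0.46 and 0.55. Every one of these groups was above its bins in replicate 3, and in replicate 1 the sign depended on the group.

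**Figure D3:**
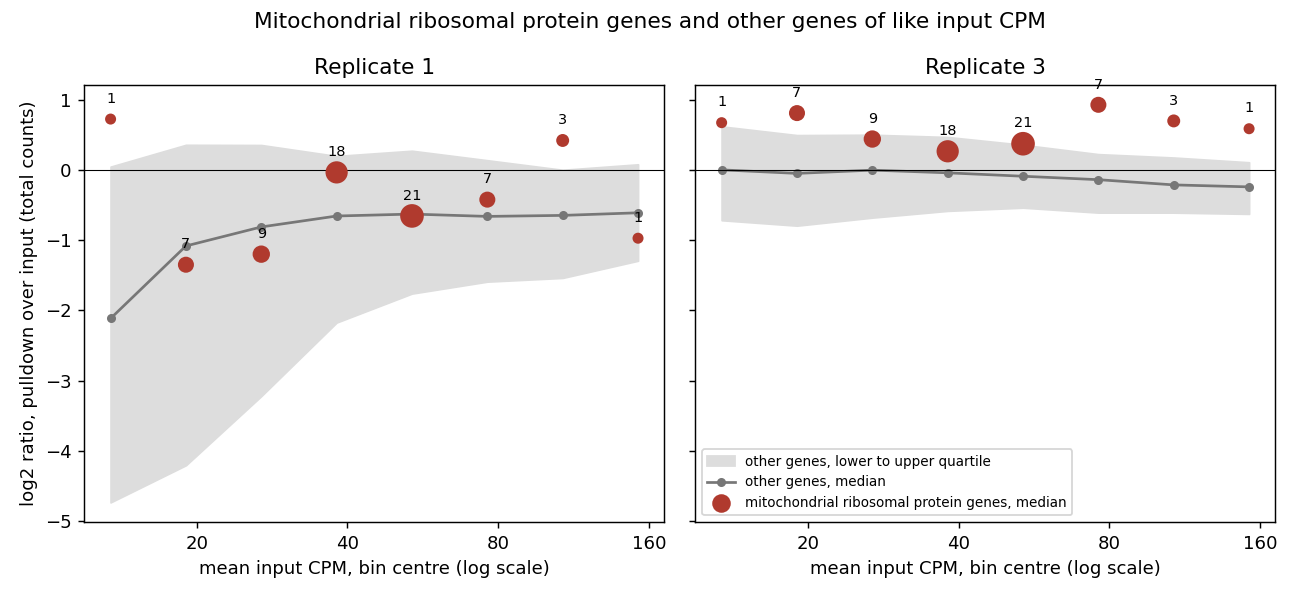
Median log2 ratio of pulldown to input on total counts (vertical axis) against mean input CPM (horizontal axis, logarithmic) in replicate 1 (left) and replicate 3 (right). Red points are mitochondrial ribosomal protein genes, sized and labelled by their number, and the grey line and band are the median and the quartiles of other genes in the same bin; the red points lie above the line in every bin of replicate 3 and on both sides of it in replicate 1.

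Transcript length was a feature in which the members stood apart from other genes without the rule having used it. For each gene the transcript with the longest coding sequence was taken. In the members it had a median of 778.5 bases (327 to 2078), against 2078 bases over 6814 tested coding genes. Its coding part had a median of 579 against 1431 bases, and its exons numbered 2 against 4. GC content (median 50.1% against 49.6%) and U content (22.6% against 22.9%) were close to those of other genes. Across all tested coding genes the log2 ratio of replicate 3 was lower for longer transcripts, at rho = -0.418, while that of replicate 1 had rho = 0.019. Within the members rho was -0.206 in replicate 3 and 0.037 in replicate 1. Genes are not independent replicates, and these values are descriptions.

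Short transcripts of other genes had ratios in replicate 3 like those of the members. The 872 other genes with transcripts under 1000 bases had a median of 0.53 in replicate 3 and -0.11 in replicate 1, and the 2079 with at least 3000 bases -0.41 and -0.28. Of the tested members, 49 have transcripts under 1000 bases. When 66 members were compared with 1187 other genes of both like input CPM and like transcript length, in bins of 0.5 log2 units of each, the median difference was 0.13 in replicate 3, with 35 of 66 above, and -0.17 in replicate 1, with 32 above. This comparison was added after the data had been seen. With level alone matched, the differences had been 0.51 in replicate 3 and 0.24 in replicate 1. The smallest bin of level and length held 6 other genes. Whether transcript length accounts for the difference was not tested.

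**Figure D4:**
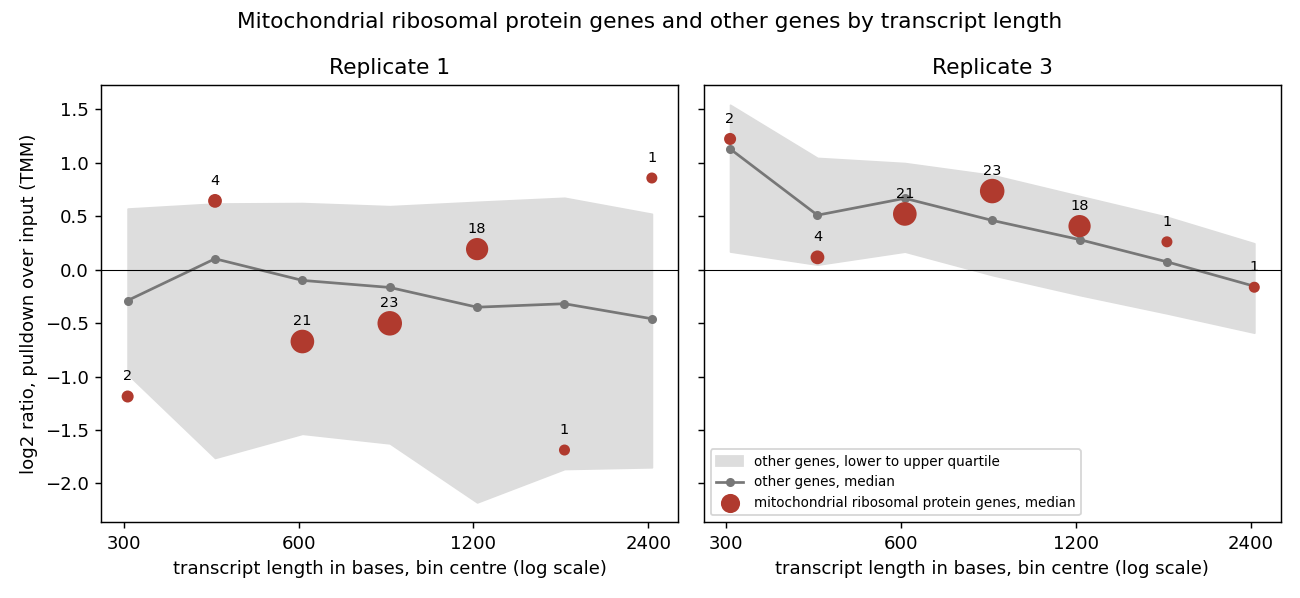
Median log2 ratio of pulldown to input on the TMM scale (vertical axis) against transcript length in bases (horizontal axis, logarithmic) in replicate 1 (left) and replicate 3 (right), with red points for mitochondrial ribosomal protein genes, sized and labelled by their number, and a grey line and band for the median and quartiles of other genes. In replicate 3 the grey line falls from 1.13 at the shortest to -0.16 at the longest transcripts shown, and the red points lie inside the band.

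In the length bin with the most members, from 724 to 1024 bases, 23 members had a median of 0.73 in replicate 3 against 0.46 over 567 other genes. In the bin below it, from 512 to 724 bases, 21 members had 0.52 against 0.67 over 262 other genes, and in the bin above it, up to 1448 bases, 18 members had 0.41 against 0.28 over 977. The members were thus above the other genes in 2 of these 3 bins and below them in 1.

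Other nuclear genes of mitochondrial translation, transcription and RNA handling, and assembly and protein turnover were described for comparison. The list holds 27 names, of which 24 were found in the files and 21 were tested, with 0 called higher and 0 lower (edgeR). Their median log2 fold change was -0.21, with 9 of 21 above 0, and medians of -0.27 in replicate 1 and -0.15 in replicate 3. Here tko and bonsai are mitochondrial ribosomal proteins under other symbols, counterparts of bacterial S12 and S15. tko, whose product belongs to the decoding centre, was at 83.6 and 94.4 CPM in input 1 and pulldown 1 and at 53.1 and 114.7 CPM in input 3 and pulldown 3. Both pulldowns were above both inputs, with a log2 fold change of 0.79 (SE 0.69). bonsai was at 45.2 and 30.5 CPM in input 1 and pulldown 1 and at 89.7 and 55.2 CPM in input 3 and pulldown 3. It was lower in both replicates, its groups overlapped, and its log2 fold change was -0.43 (SE 0.76).

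Of 8 translation factors, 2 had a log2 fold change above 0. mEFTu1, which brings aminoacyl-tRNA to the ribosome, was at 254.1 and 425.4 CPM in input 1 and pulldown 1 and at 300.6 and 341.1 CPM in input 3 and pulldown 3. Both of its pulldowns stood above its inputs, with a log2 fold change of 0.78 (SE 0.66). mIF3, an initiation factor that keeps the subunits apart, had 62 counts in input 1 against 0 in pulldown 1, and 398 against 96 in replicate 3, lower in both replicates, with a log2 fold change of -1.57 (SE 1.71). Of 8 tested genes of mitochondrial transcription and RNA handling 5 were above 0, and of 3 of assembly and protein turnover 1 was. SLIRP1 and mtTFB1 were listed at 0 in all 4 libraries.

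Beside the members, the proteins of the cytoplasmic ribosome and of the respiratory chain are the nearest groups by kind. For cytoplasmic ribosomal protein genes (RpL and RpS), 59 of 79 tested were above 0 with a median log2 fold change of 0.33, and medians of -0.07 in replicate 1 and 0.73 in replicate 3. For nuclear respiratory chain and ATP synthase genes, 51 of 61 were above 0 with a median of 0.53, and 0.35 and 0.59 in the replicates. The test called 0 genes in either list (edgeR). At 0 in pulldown 1 were 1 and 2 genes of these lists, against 13 of the 70 members, whose median input level of 43.8 CPM was below their 1323 and 103.9 CPM. These comparisons use the same 4 libraries and their differences from the members were not tested.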

How the data were processed

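Each library has 1 deposited file of raw counts of reads, with a row per FlyBase gene. Per the submitters' processing notes, the authors aligned reads to dm6 with HISAT2 2.1.0 and counted them with featureCounts 1.4.6, with RefSeq transcripts as a guide. The notes also name DESeq2 1.24.0, whose output was not used here. The library kit keeps strand, but the strand setting of the counting is not given in the sources used here. Symbols, positions and lengths came from Ensembl release 115 of the same assembly (16647 of 17023 identifiers matched), and coding sequences from the RefSeq genome, where 99.66% of 13968 start with ATG. The members and lists were chosen with earlier results of these data known.

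Group and replicate were read from the sample titles. The comparison of counts used edgeR 4.0.16 in R 4.3.3 (TMM, filterByExpr, group as the only term, quasi-likelihood test, two-sided, Benjamini-Hochberg over 7085 genes), and called at an adjusted p under 0.05 and at least 2-fold, the cutoff the study's methods give. CPM of single genes are on total counts, and CPM ratios carry 95% exact binomial intervals. Log2 ratios used a prior count of 2. Named were members with the 5 highest and 3 lowest input levels per kb, the 5 highest and 5 lowest with 1 direction in both replicates (by the ratio nearer to 0), the 5 largest gaps between replicates, any with a 0, paralogues and any not tested. mRpL15, mRpL24 and mRpL39, the inputs of mRpS9, mRpS31 and mRpL35, mRpS33 and the lists of symbols were added after their values were seen. On counts simulated for pulldown against input, with 200 genes changed 16-fold, edgeR recovered 200 at a dispersion of 0.05 (2 false calls, 7304 tested) and 74 at a dispersion of 0.5 (2 false calls, 7179 tested). The dispersion of these libraries was 0.539. Alternatives were other scalings (upper-quartile, total counts), no filter or a minimum of 10 counts per library, the replicate block, DESeq2 1.42.0, other thresholds, prior counts and definitions of likeness, and leaving out each replicate, which leaves 1 library a group and gives values only.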

Additional observations from a re-analysis of the deposited data

How the results depend on the processing

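The count of members called stayed at 0 under every setting run (upper-quartile and total-count scaling, no filter, a minimum of 10 counts per library, the replicate block, DESeq2, no fold threshold and an adjusted p under 0.1). The main fit called 0 of all 7085 tested genes, so this count does not set the members apart from other genes. The numbers pair pulldowns and inputs only by the titles. The deviations from the group mean of libraries with the same number correlated at 0.414, and with the replicate block the dispersion was 0.356, 0 members were called (smallest unadjusted p 0.0532) and the members' median stood 0.40 above that of other genes. The median difference of 0.34 ran from 0.34 to 0.40 under the other settings, except 0.75 with no filter. Leaving out a replicate repeats the difference within the other, at -0.07 without replicate 3 and 0.58 without replicate 1. The ratio of shares, 1.14 over both replicates, was 0.794 without replicate 3 and 1.48 without replicate 1. With likeness in input CPM and transcript length, the difference from other genes was -0.17 in replicate 1 and 0.13 in replicate 3. At a threshold of 1.5-fold in both replicates 8 members were higher (mRpL12, mRpL20, mRpL36, mRpL44, mRpL48, mRpS22, mRpS25 and mRpS26) and 1 lower (mRpS18B), or 11.4% and 1.43% against 5.45% and 13.2% of all tested genes, where 2-fold gave 0 and 0.

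Of 157 log2 fold changes of named members recomputed with all libraries, 13 changed sign. With the replicate block these were mRpL1 (-1.23), mRpL43 (-1.36), mRpL54 (-1.15), mRpS2 (-1.12), mRpS21 (-0.30) and mRpS28 (-0.90), of which all but mRpS21 are at 0 in pulldown 1. With upper-quartile scaling they were mRpL41 (0.017), mRpS18C (0.084) and mRpS35 (0.048), with DESeq2 mRpS18C (0.041) and mRpS35 (0.045), and for mRpS7 total counts gave -0.076 and no filter -0.020. The cause was not tested. Leaving out a replicate changed the sign for 17 of 29 named members tested. Their lowest and highest values were -7.01 and 1.00 for mRpL1, -6.55 and 0.27 for mRpL23, -3.64 and 2.09 for mRpL34, -5.37 and 0.087 for mRpL4, -6.05 and 0.68 for mRpL41, -6.43 and 0.93 for mRpL43, and -5.60 and 0.87 for mRpL54. They were -0.094 and 0.63 for mRpL55, -7.27 and 0.14 for mRpS16, -0.93 and 1.64 for mRpS18A, -0.97 and 0.43 for mRpS18C, -6.66 and 1.32 for mRpS2, -1.05 and 0.32 for mRpS21, -3.53 and 2.07 for mRpS24, -4.99 and 1.00 for mRpS28, -5.21 and 0.028 for mRpS31, and -0.57 and 0.65 for mRpS7. Ratios of genes with 0 reads in pulldown 1 are set by the prior count and depth, and members with under 10 counts there (20 of 71) have wide counting intervals. With 2 libraries a group and a dispersion of 0.5, edgeR recovered 74 of 200 simulated 16-fold changes. The fit with the replicate block recovered 22 (0 false calls) and DESeq2 144 (33 false calls), so a count of 0 differs in weight between the fits.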

Other observations

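The 71 genes lie on all the large chromosome arms, with 12 on 2L, 12 on 2R, 15 on 3L, 21 on 3R and 11 on X, and none on the fourth chromosome or the Y. The share on 3R was 29.6%, against 23.6% of tested genes, which were chosen by their counts, and that on X 15.5%, against 17.7%. No test was made of these shares.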
